A study of Mus musculus with 2 samples.

Results

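The genes described here carry and restrain the NODAL signal: the ligands Nodal and Gdf3, the co-receptor Tdgf1, the receptor Acvr2b, the secreted inhibitors Lefty1 and Lefty2, and the membrane inhibitor Ldlrad4. They were chosen by name, and all 7 were found among the 32285 genes of the count tables of both libraries. The study kept R1 mouse embryonic stem cells in N2B27, a serum-free medium, for 72 hours and sequenced single cells from 1 library per condition. LB cells grew on gelatin with BMP4 and with LIF, the self-renewal cytokine of these cells. LBPXRS cells grew on fibronectin with LIF and BMP4 plus 4 compounds: PD0325901, an inhibitor of MEK, Xav939, an inhibitor of tankyrase in the WNT pathway, SB431542, an inhibitor of the receptors that NODAL and activin use, and Resorcyclic lactone, whose target the labels do not name. No condition held SB431542 alone, so its part, that of the other 3 compounds and that of the substrate cannot be told apart. The labels name the same line for the 2 groups, and BMP4 is common to both. Y-linked transcripts differed between the libraries (below), and the part of a difference between the cells themselves cannot be told apart either. No untreated cells were compared.

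NODAL is a secreted ligand of the TGF-beta family that signals through type I and type II activin receptors, with a co-receptor of the EGF-CFC family, to SMAD2 and SMAD3, which act on chromatin with FOXH1. In the mouse embryo the signal patterns the epiblast and is needed to form the primitive streak, from which mesoderm and endoderm arise. Lefty1 and Lefty2 are known targets of the signal whose products block it, a feedback loop that holds its range in check.

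LB gave 1783 cells after filtering and LBPXRS 2705, with 45490517 and 51832444 UMIs (unique molecular identifiers, each standing for a captured RNA molecule). The median cell held 25418 UMIs in LB and 19058 in LBPXRS. Levels are in CPM, a gene's UMIs scaled by all UMIs of the cells summed. Intervals are exact at 95%, cover counting error only and say nothing of variation between cultures, since no condition had a second sample. Those of levels and ratios treat each UMI as independent. They leave out variation between cells and are too narrow for genes concentrated in few cells, such as Lefty1. The libraries also differed beyond their media, in that Y-linked genes gave 2872 UMIs in LB and 1 in LBPXRS although the labels name the same line, and none of the 7 genes lies on that chromosome. Of the cell barcodes, 8 occurred in both libraries, and the LBPXRS cells carrying them held 0 Lefty1 and 0 Lefty2 UMIs. Both libraries are labelled as embryonic stem cells, and all 12 naive pluripotency markers were found in each. These markers summed to 1092 CPM over all LB cells, 2057 CPM in the naive pluripotent-like part of LB described below and 1892 CPM in LBPXRS. Sums for LB and LBPXRS were 269 and 61.8 CPM over 10 formative markers, 351 and 27.0 CPM over 10 primitive streak markers, and 204 and 537 CPM over 11 primitive endoderm markers.

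In the GRCm38 annotation (GENCODE M21), Lefty2 lies at chr1:180893108-180899103 and Lefty1 at chr1:180935022-180938400, both on the plus strand and 35918 bases apart. Their coding sequences of 1104 bases each were identical at 1014 positions (91.8%), so whether reads can tell the genes apart bears on every value below. Of the 91-base windows of each transcript, the length of the cDNA read given in the labels, 109 of 1530 in Lefty1 and 109 of 2383 in Lefty2 were identical to the other gene. None of the 410 windows in the last 500 bases of either transcript was shared, and the libraries were made from the 3′ ends of transcripts. For Tdgf1, 113 of 1842 windows matched the pseudogene Tdgf1-ps1, and 0 of 410 in the last 500 bases did.

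Between the libraries, the Lefty genes stood apart from the other members. By size alone, 2 of the 6 members with at least 10 CPM in either library were at least 4-fold lower in LBPXRS and 0 were at least 4-fold higher; over all 7661 genes at that level, 2.88% were lower and 2.04% higher by the same rule. Log2 ratios set LBPXRS against LB and were computed as log2((CPM + 1)/(CPM + 1)); their median was -0.64 over those 6 members and -0.17 over all 7661 genes. The latter shift was -0.0072 under TMM scaling, so small ratios depend on the scaling.

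The ligands differed little between the libraries. Nodal (chr10:61417972-61425338, plus strand) had 845 UMIs in LB, or 18.6 CPM (17.3 to 19.9), and 632 in LBPXRS, or 12.2 CPM (11.3 to 13.2). LBPXRS was at 0.656 of the LB level (0.591 to 0.729), a log2 ratio of -0.57. Gdf3 (chr6:122605403-122610087, minus strand), a related ligand that also uses EGF-CFC co-receptors, gave 48.3 CPM for LB (46.3 to 50.4), against 46.5 CPM for LBPXRS (44.6 to 48.4). Its ratio of 0.961 had an interval that holds 1 (0.907 to 1.02), and its log2 ratio of -0.06 became 0.10 under TMM scaling. LBPXRS cells thus carried both ligand transcripts.

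The co-receptor and the receptor were likewise present in both libraries. Tdgf1 (chr9:110939603-110946158, minus strand), which encodes the EGF-CFC protein Cripto, reached 440 CPM for LB (434 to 446), against 295 CPM for LBPXRS (290 to 299.3), a ratio of 0.670 (0.656 to 0.684). Acvr2b (chr9:119402118-119434995, plus strand), a type II activin receptor, reached 34.4 CPM (32.7 to 36.1), against 20.7 CPM for LBPXRS (19.5 to 22.0), a ratio of 0.604 (0.558 to 0.653). Both log2 ratios, -0.58 and -0.70, lay below the shift of all genes by less than 1 unit and under the 4-fold mark.

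The secreted inhibitors were close to absent from LBPXRS. Lefty1 had 3140 UMIs in LB, or 69.03 CPM (66.6 to 71.5), in 583 of 1783 cells, and 11 UMIs in LBPXRS, or 0.212 CPM (0.106 to 0.380), in 11 of 2705 cells. Lefty2 had 3272 UMIs in LB, or 71.9 CPM (69.5 to 74.4), in 860 cells, and 13 UMIs in LBPXRS, or 0.251 CPM (0.134 to 0.429), in 13 cells. No LBPXRS cell held more than 1 UMI of either gene, whereas a single LB cell held up to 130 of Lefty1 and up to 26 of Lefty2. Lefty1 was 325-fold lower in LBPXRS (182 to 652) and Lefty2 287-fold lower (167 to 539), with log2 ratios of -5.85 and -5.87. Of the 7661 genes compared, 9 had a log2 ratio at or below that of Lefty1 and 8 at or below that of Lefty2, the gene itself included. This rank is not one of plain ratios, because the pseudocount keeps genes with lower CPM in LB from reaching such values.

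Ldlrad4, a membrane protein that keeps SMAD2 and SMAD3 from the receptor, was too rare to call. It had 49 UMIs in LB, or 1.08 CPM (0.797 to 1.42), and 93 in LBPXRS, or 1.79 CPM (1.45 to 2.20). The level in LBPXRS was 1.67 times that in LB (1.17 to 2.40), opposite in direction to the Lefty genes, and the gene was below the minimum of 10 CPM in both libraries.

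**Figure D1:**
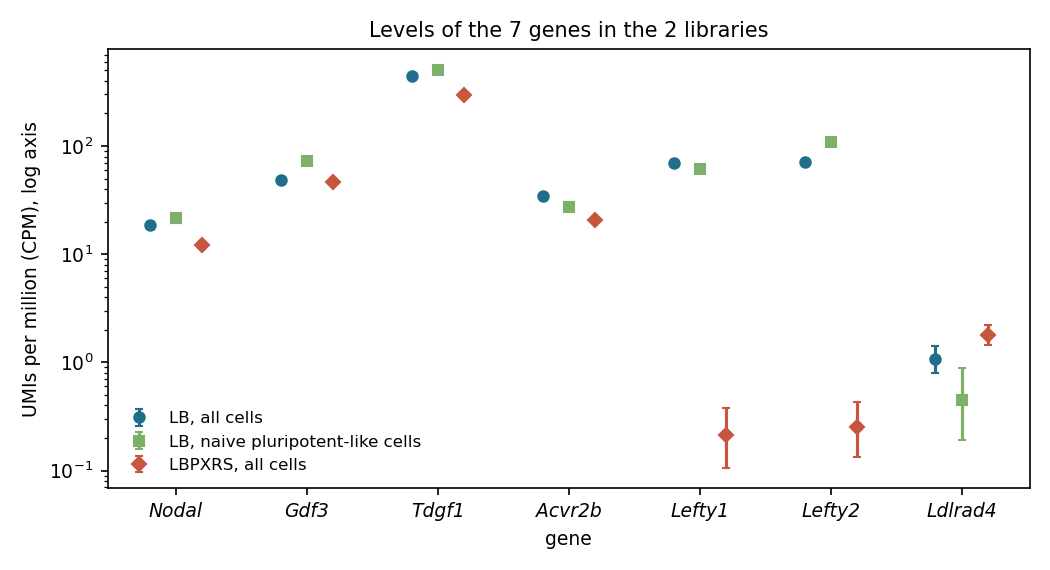
Level of each gene in CPM on a log axis, in all LB cells (circles), naive pluripotent-like LB cells (squares) and all LBPXRS cells (diamonds), with exact 95% Poisson intervals where they exceed the symbol. Lefty1 and Lefty2 stand at 69.03 and 71.9 CPM in LB and at 0.212 and 0.251 CPM in LBPXRS, while the points of Nodal, Gdf3, Tdgf1 and Acvr2b lie close together.

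After each cell was thinned to 5000 UMIs, which makes shares comparable across depth, 15.5% of 1733 LB cells held Lefty1 (13.9 to 17.3), against 0.153% of 2621 for LBPXRS (0.0416 to 0.390). Lefty2 was found in 22.0% (20.1 to 24.01) and 0.0763% (0.00924 to 0.275). Without thinning the LB shares were 32.7% and 48.2% and the LBPXRS shares 0.407% and 0.481%. In contrast, Gdf3 was found in 20.02% of thinned LB cells (18.2 to 22.0), against 22.1% for LBPXRS (20.5 to 23.7), Tdgf1 in 72.4% (70.2 to 74.5) and 71.4% (69.6 to 73.1), and Nodal in 8.89% (7.59 to 10.3) and 6.33% (5.43 to 7.33). For Acvr2b the shares were 16.8% (15.1 to 18.6) and 10.3% (9.13 to 11.5). The Tdgf1 share of all LB cells pooled 87.7% of naive-like with 40.3% of mesoderm-like and 14.5% of trophoblast-like cells. The UMIs of Ldlrad4 lay in 0.577% and 0.687% of thinned cells, with overlapping intervals.

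LB is a mixture of cell states, and the members were distributed unevenly among them. Clustering of LB cells without the 7 genes gave classes that were named from marker genes: 631 naive pluripotent-like cells (35.4%; Klf4, Zfp42 and Esrrb raised), 268 formative or primed pluripotent-like cells (15.03%; Dnmt3b, Fgf5 and Pou3f1), 292 primitive streak-like cells (16.4%; T, Mixl1 and Fgf8), 314 extraembryonic or lateral mesoderm-like cells (17.6%; Hand1, Foxf1 and Msx2) and 68 trophoblast-like cells (3.81%; Gata2, Krt7 and Krt18). A further 210 cells had no name, and none of the LBPXRS clusters, each set against the rest of its own library, met the naming rule. Class sizes depended on the clustering: at the finer Leiden resolution of 1, 301 LB cells were naive-like and 1000 unnamed, and with another random seed as few as 19 cells were trophoblast-like. In LBPXRS, 53 cells were named primitive endoderm-like at resolution 1, and 256 cells at that resolution with another seed. The interferon-stimulated genes Isg15 and Rtp4 were also among the leading genes of the primitive streak-like cluster. Of the trophoblast-like cells, 23 formed a shallow cluster with a median of 5106 UMIs and 0.0456% mitochondrial UMIs. These names are below shortened to naive-like, formative-like, streak-like, mesoderm-like and trophoblast-like. Orders of levels are over the 5 named classes alone: the unnamed LB cells stood above all of them in Tdgf1, at 733 CPM (706 to 760), and Gdf3, at 90.1 CPM (81.02 to 99.9), and 60 of these cells formed a cluster with 50.7 CPM of Nodal (35.5 to 70.3) and 178 CPM of Lefty2 (148 to 211).

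Lefty1 was highest in streak-like cells. Its level there was 202 CPM (191 to 213), against 64.4 CPM in formative-like (58.7 to 70.4), 61.0 CPM in naive-like (57.4 to 64.8), 10.3 CPM in mesoderm-like (8.21 to 12.8) and 7.72 CPM in trophoblast-like cells (4.11 to 13.2). The streak-like level was 3.31 times the naive-like one (3.05 to 3.59). Formative-like and naive-like cells did not differ beyond counting error, nor did mesoderm-like and trophoblast-like cells. The first of these depended on the clustering: at resolution 1, the formative-like cluster had 61.3 CPM (55.5 to 67.4) and the only cluster named naive-like, of 301 cells, had 44.4 CPM (40.1 to 49.1). Streak-like cells contributed 42.4% of all Lefty1 UMIs and 14.5% of all UMIs of the library.

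Lefty2 had another order among the named classes, with naive-like cells first. It stood at 109 CPM in naive-like (105 to 114), 65.6 CPM in streak-like (59.5 to 72.1), 44.9 CPM in formative-like (40.2 to 50.02), 22.8 CPM in mesoderm-like (19.6 to 26.4) and 9.50 CPM in trophoblast-like cells (5.43 to 15.4). Neighbours in this order differed beyond their counting intervals. Naive-like cells held 59.7% of its UMIs and 39.2% of those of the library. The Lefty genes therefore peaked in different classes, Lefty2 being 1.67 times higher in naive-like than in streak-like cells (1.503 to 1.86).

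Among the named classes, Nodal was highest in formative-like cells, at 33.1 CPM (29.1 to 37.5), followed by 21.5 CPM in naive-like (19.4 to 23.7), 15.3 CPM in streak-like (12.5 to 18.6), 8.31 CPM in trophoblast-like (4.54 to 13.9) and 2.77 CPM in mesoderm-like cells (1.73 to 4.19). The streak-like and trophoblast-like intervals overlapped. Streak-like cells, where Lefty1 peaked, had 0.713 of the naive-like Nodal level (0.567 to 0.890). The named class with most Nodal was thus not the one with most Lefty1 or most Lefty2.

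Gdf3 followed the naive-like state more closely, with 72.9 CPM in naive-like (68.99 to 77.0), 44.7 CPM in formative-like (40.0 to 49.7), 29.7 CPM in trophoblast-like (22.0 to 39.1), 22.0 CPM in streak-like (18.5 to 25.8) and 1.51 CPM in mesoderm-like cells (0.780 to 2.64). The mesoderm-like level rests on 12 UMIs. Trophoblast-like and streak-like intervals overlapped.

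Among the named classes, Tdgf1 was highest in the pluripotent-like ones, at 563 CPM in formative-like (546 to 581) and 503 CPM in naive-like cells (492 to 513), an order that turned in 1 of 4 repeats of the clustering with another random seed. Streak-like cells had 275 CPM (262 to 288), mesoderm-like cells 257 CPM (246 to 269) and trophoblast-like cells 41.0 CPM (31.9 to 51.8). The naive-like level was 12.3 times the trophoblast-like one (9.69 to 15.8), while streak-like and mesoderm-like intervals overlapped. Acvr2b had another order, and stood at 46.2 CPM in streak-like (41.2 to 51.7), 44.4 CPM in mesoderm-like (39.9 to 49.3), 38.0 CPM in formative-like (33.7 to 42.8), 27.4 CPM in naive-like (25.02 to 29.9) and 22.6 CPM in trophoblast-like cells (15.96 to 31.0). Of the neighbours in its order, only formative-like and naive-like had intervals that did not overlap. Ldlrad4 had 8 to 13 UMIs in each named class, and its levels of 0.448 to 4.75 CPM are not ranked.

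**Figure D2:**
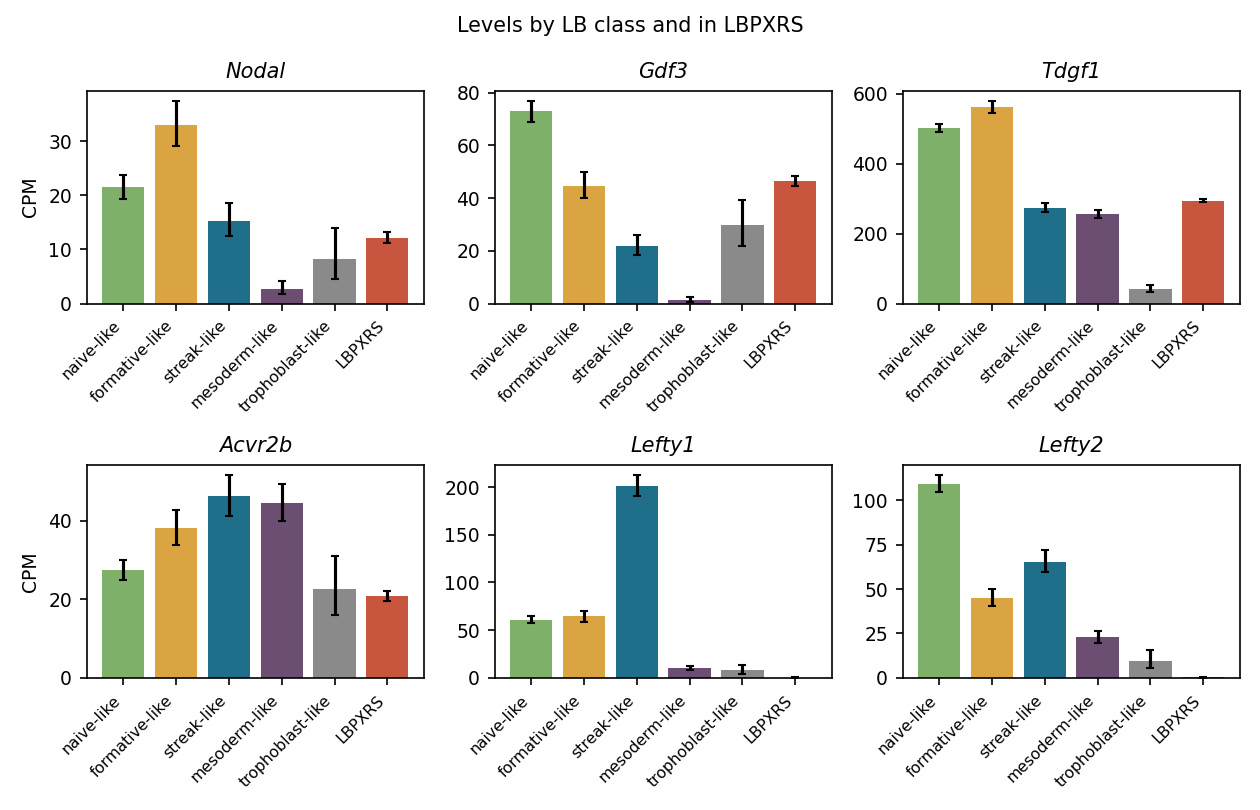
Bars give the level of 6 genes in CPM in the 5 named LB classes and in all LBPXRS cells, with exact 95% Poisson intervals; each panel has its own axis from 0. Lefty1 is highest in streak-like cells (202 CPM), Lefty2 and Gdf3 in naive-like cells (109 and 72.9 CPM) and Nodal and Tdgf1 in formative-like cells (33.1 and 563 CPM).

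RNA released into the suspension can place UMIs in cells that do not express a gene. Hand1, a mesoderm and trophoblast gene, was in naive-like cells at 2.33% of its level over all LB cells (35 UMIs), Mesp1 at 2.83% and T at 4.17%. Over these 3 genes the same fraction of the LB level would be 1.61 to 2.88 CPM for Lefty1, 1.68 to 2.996 CPM for Lefty2, 0.433 to 0.774 CPM for Nodal, 1.13 to 2.01 CPM for Gdf3 and 10.3 to 18.3 CPM for Tdgf1. Gdf3 in mesoderm-like cells, at 1.51 CPM, lay within its range, and whether it is background was not tested. The naive-like levels of all 5 genes were above their ranges.

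Because the streak-like and mesoderm-like cells of LB had no counterpart by name in LBPXRS, the libraries were also compared with naive-like LB cells alone. Lefty1 stood at 61.0 CPM in these cells and was 288-fold lower in LBPXRS (160 to 578), a log2 ratio of -5.68. Lefty2 stood at 109 CPM and was 436-fold lower (255 to 821), a log2 ratio of -6.46. In this comparison, too, 2 members were at least 4-fold lower, against 1.44% of 7270 genes, whose median was -0.0092. Nodal (-0.77), Gdf3 (-0.64), Tdgf1 (-0.77) and Acvr2b (-0.39) had ratios within the 4-fold mark. The lower Lefty levels of LBPXRS were therefore as large within the naive-like part of LB as over all its cells. Naive-like LB cells and LBPXRS cells still differed in other markers. Their sums were 201 and 61.8 CPM over the formative markers, and 107 and 537 CPM over the primitive endoderm markers. The log2 ratio of Ldlrad4 was 0.95, on 8 UMIs in naive-like cells.

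Lefty1 UMIs were concentrated in few cells. Among thinned LB cells, the 87 cells (5%) richest in each gene held 68.1% of Lefty1 UMIs, 61.3% of Nodal, 44.4% of Lefty2, 40.0% of Gdf3, 35.4% of Acvr2b and 19.3% of Tdgf1. This share also rises as a gene gets sparser: Nodal had 173 UMIs in the thinned cells and at most 3 in a cell, and for Ldlrad4 the share was 100%. The variance of Lefty1 over these cells was 6.44 times its mean, above that ratio in 99.8% of 7015 genes. For Lefty2 the ratio was 2.01, for Tdgf1 2.47 and for Acvr2b 0.989, with a median of 1.05 over all genes. Without thinning, 32 cells with at least 20 Lefty1 UMIs held 39.2% of its UMIs: 18 were streak-like, 7 naive-like and 7 formative-like. The share of a class with at least 20 UMIs was 6.16% in streak-like (3.69 to 9.57), 2.61% in formative-like (1.06 to 5.31) and 1.11% in naive-like cells (0.447 to 2.27). The share with at least 1 UMI differed less, at 42.8% (37.1 to 48.7), 36.9% (31.1 to 43.0) and 38.0% (34.2 to 42.0), and streak-like cells were the shallowest of these classes, with a median of 22007 UMIs. The higher level of Lefty1 in streak-like cells thus lay mainly in more UMIs per cell.

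Lefty2 was spread more widely over the naive-like class. At least 1 UMI was found in 69.7% of naive-like cells (66.0 to 73.3), 42.5% of formative-like (36.5 to 48.7) and 42.5% of streak-like cells (36.7 to 48.4). At least 5 UMIs were found in 23.5% (20.2 to 27.0), 7.09% (4.32 to 10.8) and 9.25% (6.18 to 13.2). Only 7 LB cells held 20 or more.

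**Figure D3:**
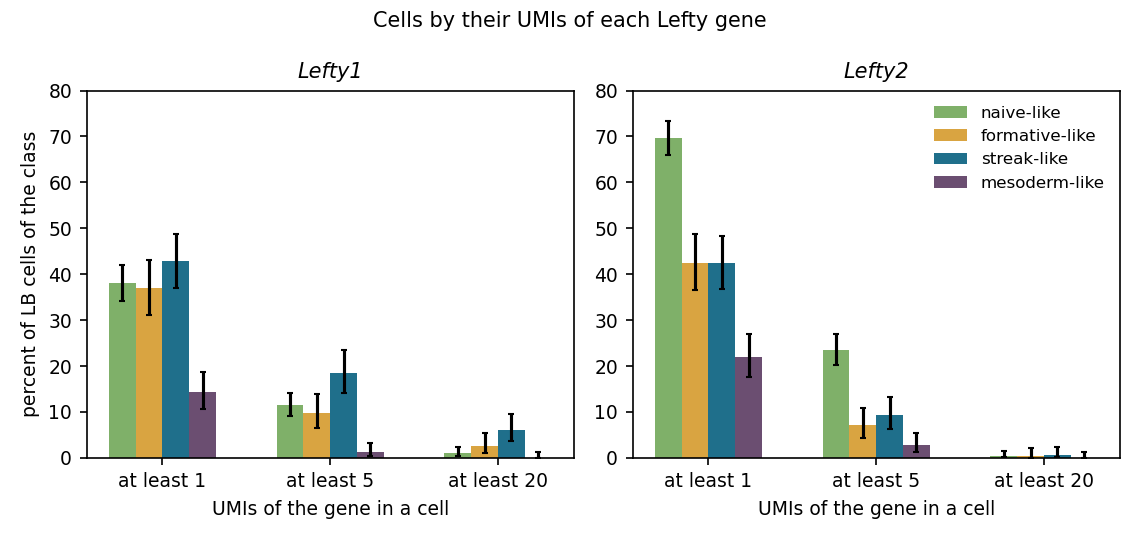
Percent of LB cells of 4 classes with at least 1, 5 or 20 UMIs of Lefty1 (left) or Lefty2 (right), without thinning, with exact 95% binomial intervals. At 20 UMIs the streak-like bar of Lefty1 is the highest (6.16%), and for Lefty2 the naive-like bars lead at 1 UMI (69.7%) and 5 UMIs (23.5%).

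The streak-like cells were not uniform. At a finer clustering (Leiden resolution 1), 2 clusters rich in T, the streak factor Brachyury, were singled out after their values were seen. A cluster of 157 cells led by T and Isg15 had 289 CPM of Lefty1 (272 to 306), 35.6% of all UMIs of that gene from 8.51% of the library's. A cluster of 131 cells led by Ndrg1 and Igfbp3, which are known to respond to low oxygen, had 80.8 CPM (70.3 to 92.3). The former exceeded the latter by 3.58-fold in Lefty1 (3.09 to 4.16), and T differed less, at 629 and 385 CPM. The border between these clusters moved with the random seed of the clustering: over 4 other seeds the Ndrg1 cluster held 100 to 145 cells, and the Lefty1 ratio ran from 3.30 to 14.4 with the same direction. The Lefty1 level of the Ndrg1 cluster ran from 20.1 to 81.3 CPM over these seeds, on both sides of the naive-like 61.0 CPM. Lefty2 was 2.33-fold higher in the T and Isg15 cluster (1.86 to 2.95), and 2.14 to 3.82-fold higher over the other seeds. Nodal (13.9 and 17.4 CPM) did not differ beyond counting error between them, and Tdgf1 was lower in the cluster richer in Lefty1, at 236 and 332 CPM.

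The mesoderm-like cells likewise split by Tdgf1. A cluster of 154 cells led by Mesp1 and Lhx1, genes of nascent mesoderm and node-derived tissue, had 534 CPM of Tdgf1 (510 to 559), close to the formative-like level. A cluster of 161 cells led by Pitx1 and Hoxb6, with 519 CPM of Hand1, had 42.1 CPM (36.3 to 48.6). The Mesp1 cluster was thus 12.7-fold higher (10.9 to 14.8), and over 4 other seeds this ratio lay between 10.9 and 13.2. These clusters were also chosen after their values were seen. Lefty2 was 3.41-fold higher in the Mesp1 cluster (2.44 to 4.82), and Acvr2b was alike within counting error, at 47.8 and 41.7 CPM.

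Single cells that carried Lefty1 often carried Lefty2. In thinned LB cells, Lefty2 was found in 41.6% of the 269 cells with Lefty1 (35.7 to 47.8) and 18.4% of the 1464 cells without (16.4 to 20.5). The same held inside the classes: the shares were 52.6% (43.1 to 61.9) and 31.1% (27.1 to 35.3) in naive-like cells, and 32.9% (22.1 to 45.1) and 11.6% (7.67 to 16.7) in streak-like cells. Lefty1 was found in 22.1% of 154 cells with Nodal (15.8 to 29.5) and 14.9% of those without (13.2 to 16.7), and within naive-like cells in 21.1% (12.3 to 32.4) and 18.1% (15.02 to 21.6). Lefty2 was found in 28.6% of the cells with Nodal (21.6 to 36.4) and 21.3% of those without (19.3 to 23.4). Over all LB cells both Lefty genes were thus somewhat more frequent with Nodal, by 7.20 and 7.23 percentage points, with intervals of the shares that overlapped.

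**Figure D4:**
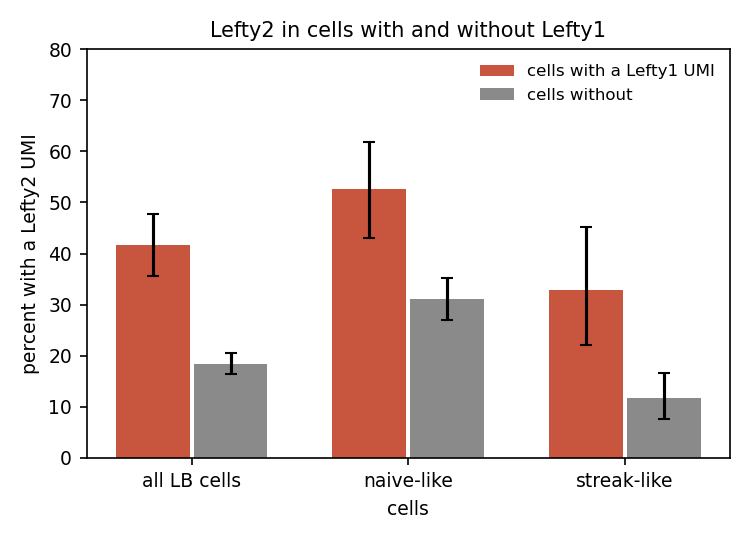
Percent of thinned LB cells with a Lefty2 UMI among cells with and without a Lefty1 UMI, for all LB cells and the naive-like and streak-like classes, with exact 95% binomial intervals. In all 3 sets the cells with Lefty1 have the higher share: 41.6% against 18.4%, 52.6% against 31.1% and 32.9% against 11.6%.

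State markers divided the Lefty genes further. Among thinned LB cells with T, 20.97% had Lefty1 (16.6 to 25.9) against 14.3% of those without (12.6 to 16.3), whereas Lefty2 was less frequent with T, at 15.2% (11.4 to 19.6) against 23.5% (21.3 to 25.8). Cells with Klf4, a naive pluripotency factor, more often held Lefty2, in 29.96% (24.5 to 35.8) against 20.5% (18.5 to 22.7). Lefty1 was found in 10.9% of all LB cells with Klf4 (7.40 to 15.2) and 16.4% without (14.5 to 18.4), with slightly overlapping intervals. Inside the naive-like class, Lefty1 was found in 10.5% of cells with Klf4 (6.62 to 15.6) and 22.2% of cells without (18.3 to 26.4), while Lefty2 was not separated by Klf4 there, at 33.5% and 35.7%. In streak-like cells, Lefty1 was found in 6.90% of 58 cells with the formative gene Dnmt3b (1.91 to 16.7) and 29.1% of cells without (23.3 to 35.5). This need not be a separate division, since Dnmt3b was at 90.6 CPM in the Ndrg1 cluster and 38.0 CPM in the T and Isg15 cluster. Cells with Hand1 rarely held Gdf3, in 2.90% (1.18 to 5.89) against 22.8% (20.7 to 25.003), and held Tdgf1 in 32.8% (26.9 to 39.1) against 78.8% (76.6 to 80.8).

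Correlations over the 1733 thinned LB cells were weak and are given as a description, since these cells share a library and their values are sparse. The gene most like Lefty1 among 7015 was Lefty2 (Pearson r = 0.24), and Psmb8 (0.21), a subunit of the immunoproteasome, was also among the closest. For Lefty2 the order was Dppa5a (0.25), a marker of pluripotent cells, then Lefty1 (0.24) and Chchd10 (0.20). Tdgf1 (0.38) and Gdf3 (0.32) were likewise closest to Dppa5a. For Nodal, Trh had the highest value (0.15), and for Acvr2b it was Chd7 (0.12), a chromatin remodeller, both too low to rank reliably. Between the 6 members other than Ldlrad4, which was too rare to enter, r lay between -0.03 and 0.14 for every pair other than the Lefty genes.

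The remaining genes of the pathway put the Lefty values in context. A list of 40 ligands, receptors, inhibitors, transducers and targets, the 7 members included, had 25 genes with at least 10 CPM in either library, of which 5 were at least 4-fold lower in LBPXRS and 0 higher (2.88% and 2.04% of all genes at that level), with a median log2 ratio of -0.57. Without the members these counts were 3 of 19, with a median of -0.38. All 3 are transcription factors induced by the signal, and all 3 were on the marker lists used to name classes, Mixl1 and Eomes for the primitive streak and Lhx1 for nascent mesoderm. Mixl1 and Lhx1 had ratios of -3.89 and -3.53 on 15 and 3 UMIs in LBPXRS, and Eomes had -2.56.

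Against naive-like LB cells the picture was narrower. Of 20 genes of the list with at least 10 CPM, Lefty1 and Lefty2 were the only genes at least 4-fold lower (1.44% of all genes were). In those cells Mixl1 stood at 0.280 CPM, Lhx1 at 0 and Eomes at 2.97 CPM, all under the minimum. Gsc, a gene of the anterior streak and organizer, went the other way, at 2.41 CPM in naive-like cells and 13.5 CPM in LBPXRS, the only gene of the list at least 4-fold higher (2.24% of all genes were). In all LB cells Gsc had 5.72 CPM (5.04 to 6.45), for a log2 ratio of 1.11.

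Among the inhibitors, Fst, a secreted antagonist of activin, reached 39.9 CPM for LB (38.1 to 41.8), against 10.2 CPM for LBPXRS (9.37 to 11.1), a log2 ratio of -1.87, and had 2.24 CPM in naive-like cells. Skil, a co-repressor of SMAD proteins that the signal induces, had 36.6 CPM (34.9 to 38.4) and 8.66 CPM (7.88 to 9.50), a log2 ratio of -1.96 just short of the mark, which the ratio of 4.23 without a pseudocount passed (3.805 to 4.70), and had 27.0 CPM in naive-like cells. Smad7, which blocks type I receptors, and Pmepa1, which sequesters SMAD2 and SMAD3, differed little, with log2 ratios of -0.29 and -0.31. Against naive-like cells Smad7 was at -0.15. Pmepa1 turned direction there, with 3.64 CPM in naive-like cells and 8.51 CPM in LBPXRS, a log2 ratio of 1.03 under the minimum level. Drap1 (-0.11) and Tgif1 (0.35), nuclear factors that limit the signal, were the inhibitors with the highest mean CPM. Cer1 had 0 UMIs in both libraries, which allows up to 0.0659 CPM in LB and 0.0579 CPM in LBPXRS at 3 counts.

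Transcripts of most of the signalling apparatus were found in both libraries. Smad4, the shared partner SMAD, had 21.4 and 13.1 CPM (log2 ratio -0.66), Smad2 16.6 and 13.5 CPM (-0.28) and Trim33 16.3 and 14.0 CPM (-0.20). Of the receptors, Acvr1b, the main type I receptor of NODAL, had 6.29 and 6.10 CPM, and Acvr2a 2.55 and 2.16 CPM, while Acvr1c had 1 UMI in LB and 0 in LBPXRS. Foxh1, the SMAD partner on chromatin, was scarce in both libraries and lower in LBPXRS, with 73 and 27 UMIs (1.60 and 0.521 CPM), a ratio of 0.325 (0.201 to 0.511) under the minimum level. Cfc1, the other EGF-CFC co-receptor, had 9.21 and 9.43 CPM. Among the enzymes that cut the NODAL precursor, Furin had 12.1 and 10.9 CPM, while Pcsk6 was higher in LBPXRS, at 4.95 CPM (4.32 to 5.64) and 20.99 CPM (19.8 to 22.3). Its log2 ratio was 1.89, just under the 4-fold mark, which it passed with TMM scaling or a pseudocount of 0.1. Against naive-like cells, where Pcsk6 had 7.79 CPM, the log2 ratio was lower, at 1.32. The ligand genes Inhba and Inhbb had 6 and 26 UMIs in LB and 0 and 70 in LBPXRS.

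**Figure D5:**
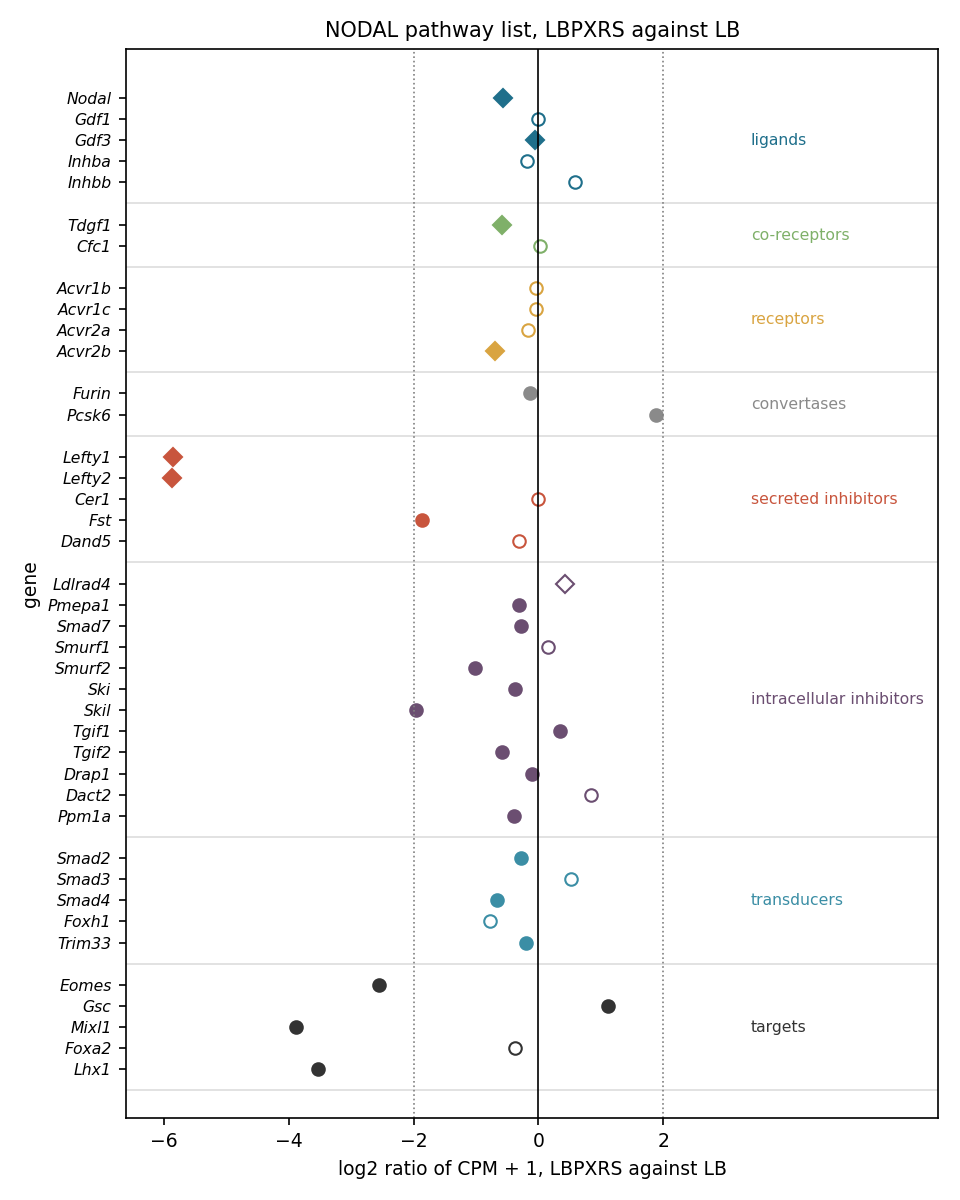
Log2 ratio of LBPXRS to LB (CPM + 1) for the 40 pathway genes, grouped by role; diamonds are the 7 members, open symbols genes under 10 CPM in both libraries, and dotted lines the 4-fold marks. The genes left of -2 are Lefty1, Lefty2, Mixl1, Lhx1 and Eomes, and none lies right of 2.

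Promoter sequence was compared with what these genes did, in the 250 bases before the start site given by RefSeq (GRCm38.p6), where 3 of the 7 members matched: Nodal, Tdgf1 and Acvr2b. Both strands were searched for TGTNNATT (FOXH1), GTCTG (SMAD) and CTTTGA (TCF/LEF), which were present in 10.9%, 42.2% and 13.8% of 32851 promoters. Tdgf1 had 2 FOXH1 matches and 1 SMAD match, Acvr2b had 1 SMAD match and Nodal had none of the 3 motifs; no window held CTTTGA. The Tdgf1 window (chr9:110946159-110946408, minus strand) is shown because it alone joined FOXH1 and SMAD matches, in capitals as they read on this strand, although Tdgf1 was at a log2 ratio of only -0.58.
Tdgf1: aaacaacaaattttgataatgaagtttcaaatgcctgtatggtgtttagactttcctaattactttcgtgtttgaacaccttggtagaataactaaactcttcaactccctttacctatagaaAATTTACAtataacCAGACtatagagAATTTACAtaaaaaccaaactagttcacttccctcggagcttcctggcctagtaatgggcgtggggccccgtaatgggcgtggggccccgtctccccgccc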

How the data were processed

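Single-cell 3′ RNA libraries (10x Genomics version 2 chemistry, per the labels' protocols) were counted by the authors with Cell Ranger 4.0.0 on mm10, per the submitters' processing notes; the deposited values are UMI counts per gene and barcode. Barcodes with fewer than 1000 genes or over 10% mitochondrial UMIs were left out: 225 of 2008 in LB and 406 of 3111 in LBPXRS. Scrublet (scanpy 1.11.5) marked 12 and 14 cells as doublets, which were kept. UMIs were summed per library or class and scaled to CPM. With 1 sample per condition no test was possible. Genes were called at 4-fold by size (log2 ratio of 2, pseudocount 1, at least 10 CPM in either library). Counts have exact Poisson, shares Clopper-Pearson and ratios conditional binomial intervals; floors are 3 counts. Shares used cells thinned to 5000 UMIs, leaving out 50 LB and 84 LBPXRS cells. Cells were clustered per library without the members (2000 variable genes, 30 components, 15 neighbours, Leiden resolution 0.5). A class needed at least 3 raised markers (log2 ratio of 1 to the rest of its library), more than any other class, a median log2 ratio of its markers of at least 1, and leading genes not richer in another class's markers; the median left unnamed 2 LB clusters (133 and 60 cells) with 5 raised naive markers each. TMM factors came from edgeR 4.0.16 on the counts. The size rule and intervals were tested on simulated counts. The members, gene lists, markers and naming thresholds were chosen with earlier results of these data known. Named genes were the members, pathway genes at the 4-fold mark, up to 2 further genes per role by mean CPM, the 3 genes most correlated with each member and class markers; others are context, and those said to be chosen after their values were seen are exceptions. Ldlrad4 positions were not used here, and some genes, among them 1 of the pathway list, and a coding sequence are not reported here.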

Additional observations from a re-analysis of the deposited data

Results flagged for a closer look

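The barcodes that the cell filter left out, 225 in LB with 740013 UMIs and 406 in LBPXRS with 728325, still held transcripts of the members above what a count of 0 allows. In LB these barcodes had 59 UMIs of Nodal, 131 of Gdf3, 419 of Tdgf1, 23 of Acvr2b, 108 of Lefty1 and 158 of Lefty2. In LBPXRS they had 34 of Nodal, 94 of Gdf3, 259 of Tdgf1 and 9 of Acvr2b. Scaled to CPM, Nodal was higher in the left-out than in the kept barcodes of each library, at 79.7 CPM (60.7 to 103) against 18.6 CPM in LB and 46.7 CPM (32.3 to 65.2) against 12.2 CPM in LBPXRS, and Gdf3 likewise, at 177 against 48.3 CPM and 129 against 46.5 CPM. Lefty1 and Lefty2 had 0 UMIs in the left-out LBPXRS barcodes, against 146 and 214 CPM in those of LB.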

How the results depend on the processing

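Of 156 alternative values, 102 stayed within counting error of the reported value or within 1.5 times a reported count, and 54 moved, of which 4 changed sign. The 2 Lefty genes were the members at least 4-fold lower in LBPXRS under all 6 alternatives run for that count, and their log2 ratios lay between -7.79 and -5.23. With TMM scaling the log2 ratios of LBPXRS to LB were -0.43 for Nodal, 0.10 for Gdf3, a change of sign, -0.42 for Tdgf1 and -0.55 for Acvr2b. A pseudocount of 0.1 gave -7.79 for Lefty1 and -7.68 for Lefty2, and the stricter cell filter (2000 genes, 0.5 to 5% mitochondrial UMIs; 1637 and 2413 cells) gave -0.54 for Tdgf1. Against naive-like LB cells the ratios were -0.77 for Nodal, -0.64 for Gdf3, -0.77 for Tdgf1, -0.39 for Acvr2b, -6.46 for Lefty2 and 0.95 for Ldlrad4. With naive-like cells from resolution 1, an alternative added after seeing the data, they were -0.75, -0.70, -0.74, -0.48, -6.45 and 0.82, with -5.23 for Lefty1. The pathway genes at least 4-fold lower numbered 2 against naive-like cells and 6 with the pseudocount of 0.1, where Skil passed the mark, and those higher numbered 1 there, with TMM scaling and with the pseudocount of 0.1.

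The difference in share of cells, LB minus LBPXRS in percentage points, changed with depth. At 10000 UMIs it was -6.79 for Tdgf1, 10.2 for Acvr2b, 21.7 for Lefty1, 33.7 for Lefty2 and -1.13 for Ldlrad4, and without thinning it was 11.7 for Nodal, -7.29 for Tdgf1, 22.9 for Acvr2b, 32.3 for Lefty1, 47.8 for Lefty2 and -0.75 for Ldlrad4. The sign of the Tdgf1 share turned (1.01 as reported) against its CPM, so no order is read from it. The trophoblast-like class held 23 cells with the members kept for clustering and 19 with Leiden seed 4. At resolution 1 with the reported seed no cluster was named streak-like, so that ratio has no value there. Other seeds did name one, of 104 cells with seed 3 and 189 with seed 4. By size these are the Ndrg1 cluster, at 21.2 CPM of Lefty1, and the T and Isg15 cluster, at 289 CPM. The reported naive-like level was 61.0 CPM, so the Lefty1 lead of streak-like cells depended on the clustering there. The log2 ratio of streak-like to naive-like cells was 1.71 for Lefty1 and -0.87 for Tdgf1 as reported; clustering without the pathway list gave 1.86 and -0.96. Leiden seeds 1 to 4, added after seeing the data, gave 1.83, 1.83 and 1.90 for Lefty1 (seeds 2, 3 and 4) and -0.998 and -0.796 for Tdgf1 (seeds 1 and 3), and the log2 ratio of Tdgf1 in formative-like to naive-like cells was -0.061 with seed 4. The Lefty1 ratio between the T and Ndrg1 clusters was the value most moved by the seed. At 10000 UMIs, Lefty2 was more frequent with Lefty1 by 31.6 points in all LB cells and 32.4 in naive-like cells (23.3 and 21.5 as reported), and Tdgf1 was less frequent with Lefty1 in streak-like cells by a difference of -4.04 points, against -23.7 at 5000. Apart from the sizes of classes and depth named here, the cause was not tested. No paired analysis was possible because each condition has 1 library. Depth limits Ldlrad4, at 49 and 93 UMIs, and the Lefty genes in LBPXRS, at 11 and 13.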

Other observations

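In each library, a small cluster with Pmel among its leading genes and a high mitochondrial share had the highest levels of the ligands. In LB it held 60 cells (median 11287 UMIs, 6.90% mitochondrial UMIs) with Nodal at 50.7 CPM (35.5 to 70.3), Gdf3 at 240 CPM (205 to 279) and Tdgf1 at 1033 CPM. In LBPXRS it held 51 cells (7225 UMIs, 7.01%) with Nodal at 35.0 CPM (19.2 to 58.8), Gdf3 at 203 CPM (161 to 252) and Tdgf1 at 511 CPM. Lefty2 stood at 178 CPM in the LB cluster and at 0 in the LBPXRS one, where a count of 0 allows up to 7.51 CPM at 3 counts. The part of depth and mitochondrial share in these values was not tested.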
